A study of Mus musculus with 12 samples.

Results

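Kidneys of the decoction-treated hyperuricemia model were compared with control kidneys across all genes, to find which genes still differed from the controls and which differed in the treated but not in the untreated model. The comparison covers 8 of the 12 RNA-seq libraries of the series, namely 4 labelled XZSW and 4 labelled CTL. The other 4 libraries, labelled HUA, are the untreated model and serve to sort the genes of this comparison. They also entered the count filter, the scaling and the estimate of spread, so the XZSW against CTL calls depend on them too. All 12 libraries are of wild-type mouse kidney. CTL is the control group. The HUA group received potassium oxonate, an inhibitor of the urate-degrading enzyme uricase, together with hypoxanthine, a purine that is oxidised to uric acid. The XZSW group received the same model treatment and the Xin-Zi-Sheng-Wan decoction. The labels give no dose, duration, strain, sex or age for any group, and they leave unsaid whether each of the 4 samples per group is a different mouse. The p-values therefore measure the spread between samples that may be technical repeats. The sample descriptions tie the letter C to CTL, N to HUA and M to XZSW. Neither N nor M is an abbreviation of its group name, and had the letters been swapped, every HUA and XZSW value here would be swapped too.

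Uric acid is filtered at the glomerulus and then largely handled by the proximal tubule, where transporters on both faces of the cell reabsorb and secrete it. Proximal tubule cells draw most of their energy from the oxidation of fatty acids, a programme under the control of the nuclear receptor PPAR alpha. When injured, these cells lose transporters and oxidative enzymes, switch on genes such as Havcr1, Lcn2 and Clu, and release signals that draw in macrophages. Rodents degrade urate with uricase, so the enzyme has to be inhibited to raise urate in a mouse.

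The libraries held 51643999 to 64763673 counts in CTL and 58331452 to 71083187 counts in XZSW. After low counts were removed, 19772 of 33188 genes were tested. Levels below are CPM, counts scaled to a common library size with edgeR's trimmed-mean (TMM) factors. Correlations of log2 CPM were 0.987 to 0.990 among CTL libraries, 0.970 to 0.988 among XZSW libraries and 0.972 to 0.978 between the groups. The XZSW libraries fell into 2 pairs by base composition. The slope of log2 CPM on GC content, per 10% of GC and against the CTL mean, was 0.0494 to 0.0725 in XZSW1 and XZSW2 and 0.270 to 0.330 in XZSW3 and XZSW4, against −0.0428 to 0.0493 in CTL. In the untreated model the slope was 0.00885 in HUA1 and 0.243 to 0.352 in HUA2, HUA3 and HUA4. On this measure HUA2, HUA3 and HUA4 lay nearer to XZSW3 and XZSW4 than any CTL library did. Markers of proximal tubule, thick ascending limb and collecting duct were abundant in every library, as the kidney label states. Adipocyte markers stood apart in XZSW1, where the list summed to 523 CPM against 57.3 to 66.9 in the other XZSW libraries and 69.9 to 127 in CTL. Serpina3n, Serpina1a, Serpina1c and Lcn2 were also highest in that library among the XZSW libraries, and the part of adipose tissue in their values was not tested. None of the 8 tested adipocyte markers was called, but an excess in 1 library of 4 is hard to call. The count filter had removed Plin1, Retn, Ucp1 and Lep. These stood at 14.1, 4.71, 4.16 and 1.03 CPM in XZSW1 and at 0 to 0.444 CPM in every other library.

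The treated model differed from control kidney at 987 genes by edgeR's quasi-likelihood test with Benjamini-Hochberg adjusted p under 0.05. That is 4.99% of the genes tested, with 538 genes higher (2.72%) and 449 lower (2.27%). The median log2 difference over all tested genes was 0.04. In the untreated model, 5488 genes (27.8%) differed from the same 4 CTL libraries, 2950 of them higher (14.9%) and 2538 lower (12.8%). The share of higher genes depended on the scaling. It was 54.5% with TMM factors, 84.5% when counts were scaled to library totals (1221 higher and 224 lower) and 23.9% after a correction for GC content and gene length (390 higher and 1242 lower). All 987 genes kept their direction under library totals, and 986 kept it under the GC and length correction. The number called also rested on single libraries. It was 133 without CTL2, 165 without CTL3, 249 without XZSW3, 308 without CTL1, 313 without XZSW1, 324 without CTL4, 520 without XZSW4 and 1596 without HUA1.

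Most of the genes that differed from control also differed in the untreated model. Of the 987 genes, 718 (72.7%) were also called in the untreated model in the same direction, and these are called still changed. They comprise 405 higher and 313 lower genes, and make up 13.1% of the genes called in the untreated model. The number of still changed genes was 108 without CTL2, 131 without CTL3, 192 without XZSW3, 243 without CTL1 or XZSW1, 264 without CTL4, 380 without XZSW4 and 1104 without HUA1. Their difference from control was smaller than in HUA for 462 and larger for 256. A direct test of XZSW against HUA called 130 of the 718 as shifted towards CTL and 7 as shifted further away, and did not call 581. A further 116 genes are called new under treatment: they passed in XZSW against CTL and, in the same direction, against HUA, but not in HUA against CTL. The number of new genes was 21 without CTL2, 30 without CTL3, 38 without CTL1, CTL4 or XZSW3, 43 without XZSW1, 56 without XZSW2, 72 without XZSW4 and 183 without HUA1. Another 147 were called against CTL in XZSW and not in HUA, with no call between XZSW and HUA, so a difference from the untreated model was not shown for them. Only 6 genes were called in opposite directions. Both comparisons use the same CTL libraries, so these counts are descriptions and carry no test of their own. For scale, 2173 genes called in HUA were called back towards control and were not called in XZSW against CTL.

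**Figure D1:**
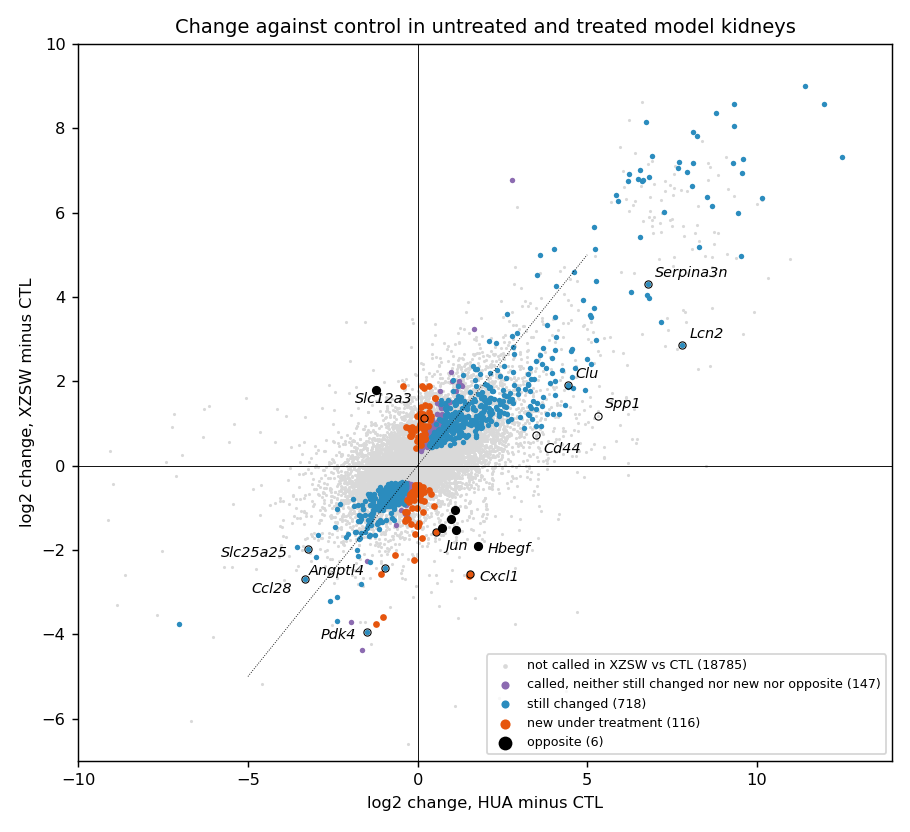
Each point is a tested gene; the horizontal axis gives the log2 difference HUA minus CTL and the vertical axis XZSW minus CTL, with genes coloured as still changed, new under treatment, opposite or other, and a dotted line for equal change. The 718 still changed genes lie at the lower left and upper right, 462 of them nearer to 0 for XZSW than for HUA, and the 116 new genes were not called along the horizontal axis.

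Markers of tubular injury remained above control at a few genes. Clu, which encodes the secreted chaperone clusterin (chr14:65968483-65981547, GRCm38), stood at 162, 147, 186 and 168 CPM in CTL and at 542, 553, 769 and 614 CPM in XZSW. Every XZSW library lay above every CTL library and below every HUA library, which held 1939 to 4929 CPM. Clu rose by 1.9 ± 0.26 on the log2 scale (SE, n = 4 per group) against CTL, with an adjusted p of 0.00525. The iron-carrier gene Lcn2 was counted at 1.42, 2.64, 0.517 and 3.1 CPM in CTL and at 30.2, 7.38, 6.3 and 12.4 CPM in XZSW, so the groups did not overlap. It rose by 2.87 ± 0.63 (SE) with an adjusted p of 0.0249, against 7.81 in HUA. Its call was lost without CTL1, CTL2, CTL3 or XZSW1, with adjusted p up to 0.0740 by edgeR, and without XZSW1 its log2 difference was 2.17. The keratin gene Krt18 rose by 1.23 on the log2 scale and the galectin gene Lgals3 by 1.41, against 4.17 and 3.31 in HUA. The small heat shock protein gene Hspb8 stood at 7.49, 6.96, 6.95 and 9.7 CPM in CTL and at 24.5, 35.1, 19.8 and 21.3 CPM in XZSW, with no overlap, and rose by 1.69 ± 0.19 (SE, adjusted p = 0.00246). Havcr1, the kidney injury molecule, stood at 39.9, 43.4, 30.2 and 37.9 CPM in CTL and 29.9, 11.3, 34.7 and 50.8 CPM in XZSW. Its groups overlapped, and it was not called in XZSW (log2 difference −0.26, adjusted p = 0.827), while its log2 difference in HUA was 4.91. Of 26 tested injury and repair genes, 4 were called higher and none lower in XZSW, with a median of 0.73, against 25 higher in HUA with a median of 3.41. The 4 became 2 without CTL1, 1 without CTL2, 1 without CTL3, 2 without XZSW1 and 7 without HUA3. Over all tested genes, the scale for this and the later lists, 2.72% were called higher and 2.27% lower in XZSW. In HUA these shares were 14.9% and 12.8%. A single called member therefore says little about its list.

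**Figure D2:**
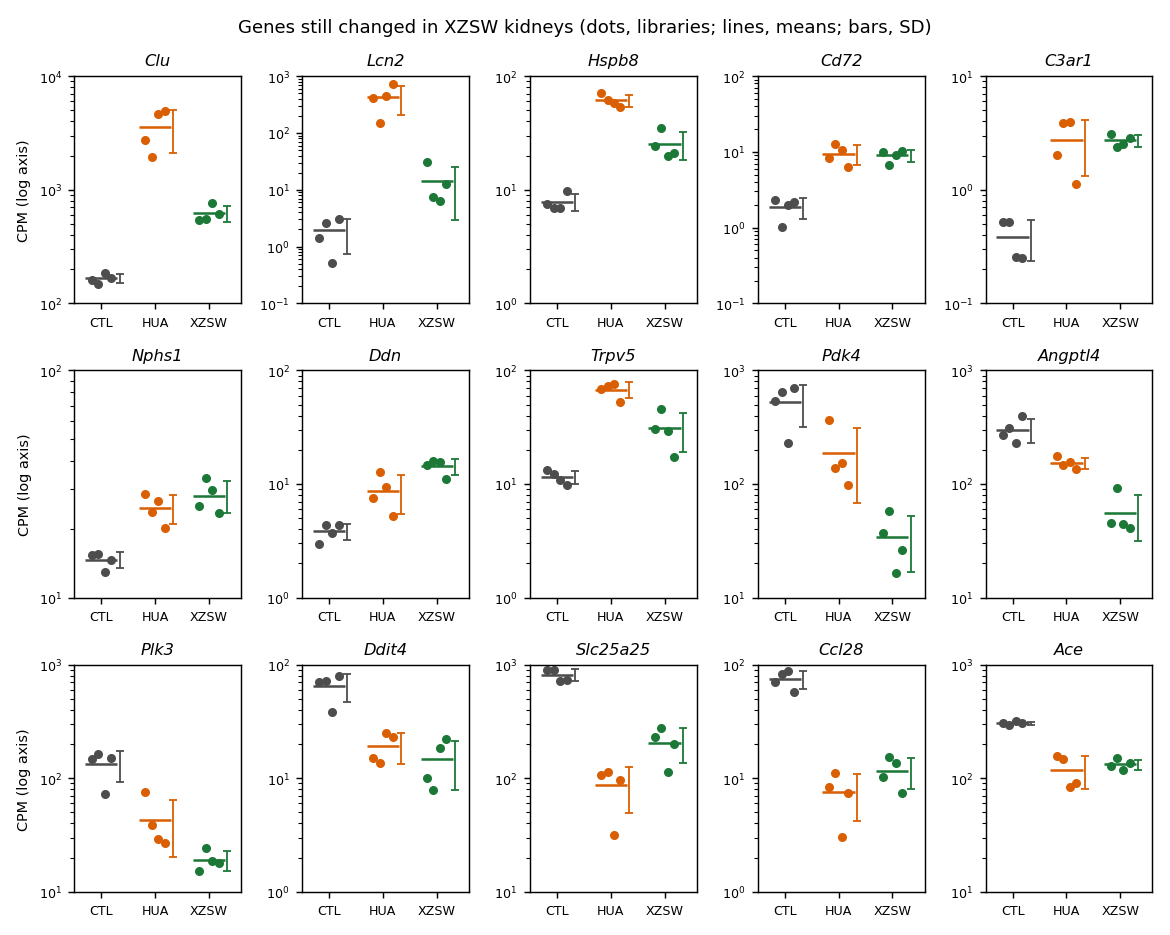
CPM on a log axis for 15 still changed genes, one strip per gene, with a dot for each of the 4 libraries of CTL, HUA and XZSW, a line at the group mean and a bar of 1 SD. Clu, Lcn2 and Hspb8 lie between CTL and HUA in XZSW, Cd72 and C3ar1 lie at the HUA level, and Pdk4, Angptl4 and Plk3 lie below both groups.

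Several genes of secreted plasma proteins were higher, and so were 6 of 17 tested complement genes. Serpina3n, a protease inhibitor gene, was at 0.351, 0.397, 0.172 and 0.218 CPM in CTL and at 17.1, 2.83, 1.47 and 1.29 CPM in XZSW. The groups did not overlap, but XZSW1 stood far above its group. Serpina3n rose by 4.31 ± 0.85 (SE, adjusted p = 0.018), and the call was lost when any one CTL library was left out, with adjusted p up to 0.0688. Without XZSW1 its log2 difference was 2.70 (adjusted p = 0.0231). The alpha-1-antitrypsin genes Serpina1a and Serpina1c rose by 2.32 and 2.55. Serpina1a stood at 18.4 CPM in XZSW1 and 2.57 to 8.70 CPM in the other XZSW libraries, and Serpina1c at 16.4 CPM and 2.14 to 5.91 CPM. Without XZSW1 their log2 differences were 1.54 and 1.61 and neither was called (adjusted p = 0.0894 and 0.0683 by edgeR). They are near-identical copies, so counts may have been split between them. The vitamin D-binding protein gene Gc rose by 2.0 and the diamine oxidase gene Aoc1 by 1.94. C3, the central complement component, stood at 26.6, 35.4, 8.55 and 31.9 CPM in CTL and 71.1, 92.5, 91.9 and 99.4 CPM in XZSW, without overlap. C3 rose by 1.79 in XZSW (adjusted p = 0.025) and by 4.93 in HUA. Cfi, which encodes an inactivating complement protease, rose by 1.76 and the C1s gene C1s1 by 1.28. C3ar1, the receptor for the C3a fragment, was at 0.518, 0.516, 0.258 and 0.251 CPM in CTL and at 3.1, 2.39, 2.53 and 2.86 CPM in XZSW. The groups were well apart, and the rise of 2.81 ± 0.43 (SE, adjusted p = 0.00814) stood beside 2.82 in HUA. Of 17 complement genes tested, 6 were called higher and none lower, with a median of 0.92, against 12 higher and 2 lower in HUA. The count of 6 fell to 2 without CTL1, CTL2, XZSW3 or XZSW4 and to 3 without CTL3 or CTL4. Liver is a main source of several of these secreted proteins. Of 14 hepatocyte markers, a list added after the values were seen, 12 were tested and none was called, with a median of 1.34. Their summed level was 122 to 188 CPM in XZSW and 161 to 188 in CTL, of which Ttr, a gene that kidney also held in every library, made up 40.4 to 90.2 CPM in XZSW and 89.8 to 118 in CTL. The median deviation of the 12 from the CTL mean was 1.26, 0.87, −0.24 and 0.68 on the log2(CPM + 0.5) scale in XZSW1 to XZSW4. The liver genes Ahsg (2.29 and 0.965 CPM) and Cyp2c29 (0.769 and 0.628 CPM) were counted in XZSW1 and XZSW2 and were at 0 in the other 10 libraries. The part of such transcripts in the rises above was not tested.

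Of 20 tested macrophage and monocyte markers 6 were called above control, and of these 6 only Cd68 was also called against the untreated model. Cd72, a lectin-like receptor gene of B cells and macrophages (chr4:43446462-43454628), stood at 2.31, 1.03, 1.96 and 2.16 CPM in CTL and at 10.1, 6.71, 9.23 and 10.2 CPM in XZSW. No XZSW library reached down to the CTL range. It rose by 2.28 ± 0.29 (SE, adjusted p = 0.00467) against 2.35 in HUA, and XZSW minus HUA was −0.07. The lysosomal marker Cd68 stood at 1.98, 1.84, 0.947 and 1.99 CPM in CTL and 7.49, 2.99, 4.82 and 6.16 CPM in XZSW, with no overlap, and rose by 1.66. Its log2 difference from HUA was −1.01 (adjusted p = 0.0337). The fractalkine receptor gene Cx3cr1 rose by 2.08, the integrin gene Itgam by 3.06, the transcription factor gene Spi1 by 1.84, the chemokine receptor gene Ccr2 by 2.35 and the Fc receptor gene Fcgr1 by 1.79. These 6 are the called members of the 20 tested macrophage and monocyte markers, whose median was 1.39. None was called lower. In HUA, 15 were called higher and 1 lower, with a median of 2.11. The XZSW count fell to 1 without CTL2 and to 2 without CTL3. Cx3cr1, Itgam, Spi1, Ccr2 and Fcgr1 were at low levels, with mean FPKM of 0.66 to 1.32 in XZSW. By limma on log2(FPKM + 1), Itgam, Ccr2 and Fcgr1 rose by 0.63, 0.65 and 0.54 and were not called, while Cx3cr1 and Spi1 kept their calls. Csf1, which encodes the macrophage growth factor, rose by 1.22, against 3.82 in HUA. The summed level of the 20 markers was 203 to 357 CPM in CTL and 274, 322, 641 and 662 CPM in XZSW1 to XZSW4, so on the sum only the last pair stood above the controls. Bulk tissue cannot tell more cells of a type from more RNA per cell, here and for every cell type below. B and plasma cell markers had no member of 6 called and summed to 19.7 to 42.1 CPM in XZSW and 19.0 to 46.5 in CTL. None of 12 T and NK cell markers was called, with sums of 6.61 to 23.9 CPM in XZSW and 4.87 to 11.4 in CTL, and none of 5 neutrophil markers was called.

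Matrix and interferon genes showed smaller or more variable rises. Collagen gene Col1a1 was at 5.18, 4.98, 4.5 and 3.03 CPM in CTL and at 13.8, 4.55, 29.4 and 75.3 CPM in XZSW. Its groups overlapped because XZSW2 lay within the control range, although edgeR called it at an adjusted p of 0.0249 with a log2 difference of 2.80. Col3a1 behaved alike, with XZSW2 at 6.94 CPM inside the CTL range of 6.08 to 10.2 CPM, and a log2 difference of 2.07. Without XZSW3 and XZSW4 the differences were 1.08 and 0.54 and neither gene was called, and without XZSW4 alone Col1a1 was at 1.85. The matricellular gene Tnc rose by 2.98, or 2.31 without XZSW1 where it was not called, and the laminin gene Lama5 by 0.66. Of 31 matrix genes tested, 5 were called higher and none lower, with a median of 0.72, against 23 higher in HUA. Of the 31 log2 differences 28 were positive. The summed level did not rise alike, at 3756, 2917, 2584 and 2674 CPM in XZSW1 to XZSW4 and 2885 to 3218 CPM in CTL. Leaving out any one CTL library or XZSW3 brought the 5 to 0, leaving out XZSW1 or XZSW4 to 2, and leaving out XZSW2 or HUA3 brought it to 8 and 9. Of 22 interferon response genes, 4 were called higher: Stat2 by 1.16, the GTPase genes Iigp1 by 1.52 and Gbp2 by 1.32, and the regulator gene Irf1 by 0.73. All but Iigp1 were called in HUA too, where 14 of the list were higher. That count was 0 without CTL1 or CTL3, 1 without CTL4 or XZSW1 and 2 without CTL2, XZSW3 or XZSW4.

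Of 12 tested podocyte markers, 5 were called higher and 1 lower in the treated model. Podocytes are the epithelial cells that wrap the glomerular capillaries. Nphs1, which encodes the slit-diaphragm protein nephrin, stood at 15.3, 15.6, 13.0 and 14.7 CPM in CTL and at 25.3, 33.5, 29.6 and 23.5 CPM in XZSW. The groups did not overlap and the HUA libraries, at 20.2 to 28.5 CPM, lay beside XZSW. Nphs1 rose by 0.93 ± 0.15 (SE, adjusted p = 0.00985) in XZSW and by 0.76 in HUA. The cell cycle inhibitor gene Cdkn1c stood at 10.1, 11.8, 7.3 and 10.4 CPM in CTL and 26.5, 28.1, 30.8 and 30.4 CPM in XZSW, well apart, and rose by 1.55 ± 0.24 (SE) against 0.89 in HUA. Synpo, an actin-associated gene, rose by 1.04, the phospholipase gene Plce1 by 1.60 and the transcription factor gene Wt1 by 1.14. Over the 12 markers the median log2 difference was 1.02, and all 6 called genes were called in HUA in the same direction. The 5 higher genes became 3 without CTL2 and 8 without HUA1 or HUA4. Ddn, the dendrin gene, which podocytes also express, rose by 1.9 with 2.98 to 4.32 CPM in CTL and 11 to 15.8 CPM in XZSW. The podocyte markers summed to 198 to 264 CPM in CTL and to 366, 462, 435 and 325 CPM in XZSW1 to XZSW4, all above control.

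Distal nephron genes included both remainders of the model and changes of the treated group. The apical calcium channel gene Trpv5 stood at 13.2, 12.2, 10.8 and 9.72 CPM in CTL, at 68.0, 73.2, 76.5 and 52.3 CPM in HUA and at 30.8, 45.7, 29.4 and 17.4 CPM in XZSW. The XZSW libraries lay between both other groups without overlap. Trpv5 rose by 1.42 against CTL (adjusted p = 0.0115) and its relative Trpv6 by 1.53, and the log2 differences XZSW minus HUA were −1.13 and −1.86. Intercalated cells secrete acid or base in the collecting duct, and Foxi1 encodes their lineage transcription factor. Foxi1 stood at 12.7, 14.7, 25.1 and 16.2 CPM in CTL and at 39.2, 65.4, 52.1 and 46.8 CPM in XZSW, apart from both CTL and HUA (19.1 to 31.6 CPM). It rose by 1.56 in XZSW and by 0.70 in HUA, and the step from HUA to XZSW of 0.87 passed the test (adjusted p = 0.0251). The proton pump subunit gene Atp6v0d2 rose by 0.63, and these were the 2 called members of 13 intercalated cell markers. Among 12 principal cell markers only Gata3, a transcription factor gene, was called, with a rise of 1.41. None of 13 thick ascending limb markers was called, though 10 of the 13 log2 differences were negative, with a median of −0.40. They summed to 2964, 2092, 4609 and 6973 CPM in XZSW1 to XZSW4 and to 5079 to 6207 CPM in CTL.

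Of the still changed genes, 7 were called against HUA in the direction away from control. Foxi1, Gata2 and Slc4a3 were higher. Gata2, a transcription factor gene, rose by 1.49 in XZSW and 0.82 in HUA, and the anion exchanger gene Slc4a3 by 1.45 and 0.69. The XZSW minus HUA steps were 0.67 (adjusted p = 0.0457) and 0.76 (adjusted p = 0.0163). The other 4 were lower, namely Pdk4, Angptl4, Plk3 and the predicted gene Gm14494, which fell by 0.92 in XZSW and by 0.41 in HUA. Pdk4 encodes a kinase that shuts pyruvate out of oxidation (chr6:5483351-5496309). It stood at 533, 645, 229 and 699 CPM in CTL, at 365, 139, 152 and 97.3 CPM in HUA and at 37.3, 57.7, 16.6 and 26.1 CPM in XZSW. The XZSW libraries lay below both other groups, which overlapped each other. Pdk4 fell by 3.94 ± 0.51 (SE, adjusted p = 0.00467) against CTL, the step from HUA being −2.45 (adjusted p = 0.00599). Angptl4, which encodes an inhibitor of lipoprotein lipase (chr17:33773750-33781830), stood at 270.0, 309, 228 and 398 CPM in CTL and at 44.9, 92.4, 44.7 and 41.2 CPM in XZSW. It was lower in every XZSW library, with HUA between at 136 to 176 CPM, and fell by 2.43 ± 0.26 (SE, adjusted p = 0.00246) against CTL. The stress-induced kinase gene Plk3 stood at 148, 164, 73.3 and 151 CPM in CTL and 15.2, 24.2, 18.5 and 18.1 CPM in XZSW, without overlap, and fell by 2.82 ± 0.34 (SE, adjusted p = 0.0046) in XZSW and by 1.66 in HUA.

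Transcripts of 13 genes from a list of fatty acid oxidation and PPAR alpha genes stayed below control. Of 32 tested genes of fatty acid oxidation and PPAR alpha, 13 were called lower and none higher in XZSW. All 32 log2 differences were negative, with a median of −0.68, and 23 had every XZSW library below every CTL library, where 11.3% of all tested genes did. In HUA, 26 were called lower and 1 higher, with a median of −1.08. The dehydrogenase gene for medium-chain fatty acids, Acadm, stood at 1026, 1163, 1173 and 1257 CPM in CTL and at 549, 535, 469.9 and 505 CPM in XZSW. The groups were far apart, and Acadm fell by 1.16 (adjusted p = 0.0221) in XZSW and by 1.72 in HUA. Its very-long-chain counterpart Acadvl fell by 0.71, the carnitine transferase gene Cpt2 by 0.95, the dienoyl-CoA reductase gene Decr1 by 1.06 and Etfdh, which passes electrons from these steps to ubiquinone, by 0.98. The thioesterase genes Acot1 and Acot2, which lie side by side and are alike in sequence, fell by 1.67 and 1.38. Acot1 stood at 138, 185, 159 and 342 CPM in CTL, where CTL4 was highest, and at 88.5, 73.3, 55.6 and 41.2 CPM in XZSW. The groups did not overlap, and the call was lost without XZSW3 (adjusted p = 0.0522). The lipid droplet gene Plin5 fell by 1.57. Ppara itself (log2 difference −0.62) and Cyp4a14 (−2.85), the latter subject to read sharing with near copies, were not called, and CTL4 held the highest control level of Cyp4a14 (829.5 CPM). The count of 13 depended on single libraries. It was 3 without CTL2, CTL3 or CTL4, 2 without XZSW3 and 6 without XZSW4. Without XZSW3 the calls of Acadm, Acadvl, Cpt2, Decr1, Etfdh, Acot1, Acot2 and Plin5 were all lost. Fatty acid oxidation is concentrated in proximal tubule, whose own markers are given next. The nuclear genes of the respiratory chain had no called member of 29 (median −0.17), against 21 lower in HUA.

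**Figure D3:**
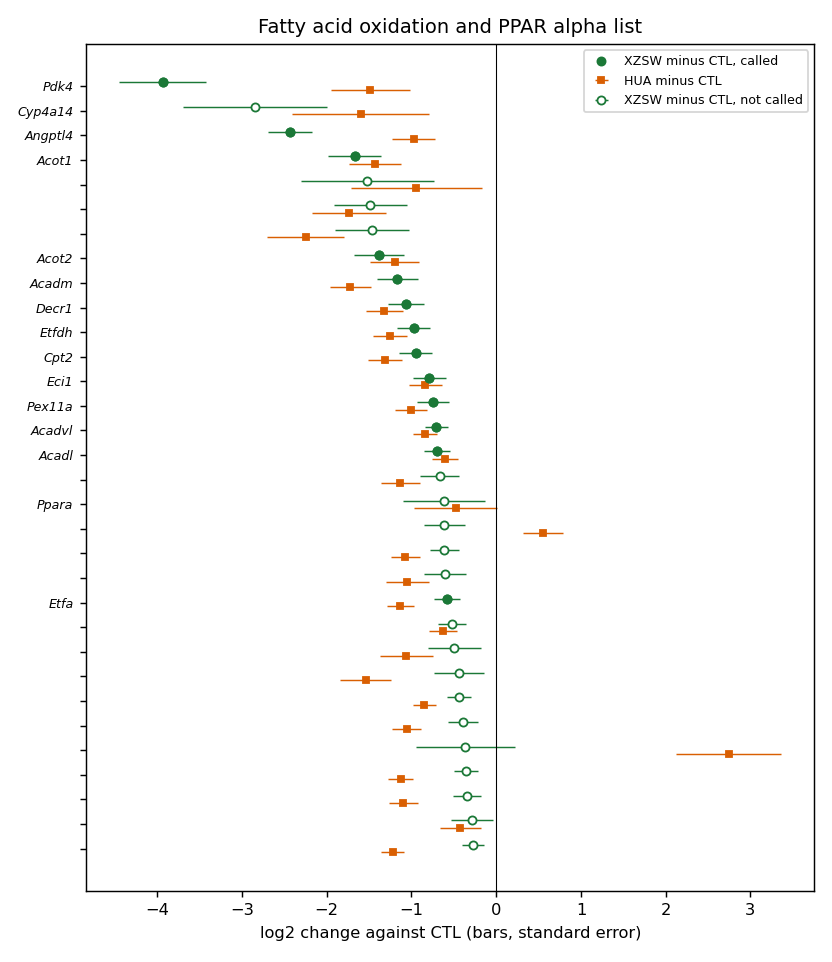
Log2 differences from CTL with standard errors for the 32 tested genes of the fatty acid oxidation list, with XZSW (circles, filled where the adjusted p was under 0.05) and HUA (squares) side by side; genes called in XZSW or named in the text are labelled. All 32 XZSW circles lie below 0 and 13 are filled.

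Proximal tubule transport genes were lower in part. Among 16 urate and organic anion transport genes, 3 were called lower and none higher in XZSW, with a median of −0.49, against 11 lower and 1 higher in HUA with a median of −1.31. Slc17a1, a urate and phosphate transporter gene, stood at 749, 813, 847 and 733 CPM in CTL and at 456, 595, 406 and 419 CPM in XZSW, with no overlap. It fell by 0.74 (adjusted p = 0.0231), and XZSW was higher than HUA by 0.56 (adjusted p = 0.0292). Slc17a3 fell by 0.79 and the urate efflux pump gene Abcg2 by 0.64. The urate reabsorption transporter gene Slc22a12 stood at 1177, 1319.9, 1792 and 1574 CPM in CTL and 821, 912, 806 and 706 CPM in XZSW. Its groups did not overlap, but its log2 difference of −0.85 missed the threshold (adjusted p = 0.0531), while XZSW exceeded HUA by 0.85. The 3 transporter calls were fragile: none was left without any one CTL library, or without XZSW1, XZSW3 or XZSW4. Of 20 markers of the first proximal tubule segments only Slc3a1, an amino acid transporter subunit gene, was called, with a fall of 0.84. Of 14 markers of the last segment, Ghr, the growth hormone receptor gene, fell by 0.97 and the flippase gene Atp11a by 0.80. The median of those 14 was −0.82, and 13 of them had every XZSW library below every CTL library, where 11.3% of all tested genes did. Among 15 androgen-responsive genes 3 were called lower and none higher, with a median of −0.81: Gusb by −1.73, the organic anion transporter Slco1a1 by −1.47 and the glucuronosyltransferase Ugt2b38, which has close paralogs, by −1.03. Among 25 purine metabolism genes, 3 were called lower, namely Nt5e by −1.27 and the synthesis genes Paics by −0.49 and Gmps by −0.44. Leaving out any one CTL library, XZSW1, XZSW3 or XZSW4 left 1 called gene in each of these 2 lists, and leaving out HUA2, HUA3 or HUA4 gave 7, 6 and 5 androgen-responsive genes.

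Several other genes were well below control and were not called against HUA. Ace, the angiotensin-converting enzyme gene, stood at 305, 292, 316 and 306 CPM in CTL and 127, 149.7, 118 and 135 CPM in XZSW. The groups were far apart, and Ace fell by 1.20 ± 0.19 (SE, adjusted p = 0.00967) in XZSW and by 1.35 in HUA. The mucosal chemokine gene Ccl28 stood at 70.3, 83.0, 88.1 and 57.0 CPM in CTL and at 10.2, 15.4, 13.5 and 7.38 CPM in XZSW, again without overlap, and fell by 2.68 ± 0.34 (SE, adjusted p = 0.00467). The organic anion transporter gene Slc22a26 fell by 2.16, the inner membrane protein gene Mpv17l by 1.63 and the antiproliferative gene Tob2 by 1.57. Ddit4, an inhibitor of mTORC1 signalling, stood at 69.7, 72.3, 38.2 and 78.6 CPM in CTL and at 10.1, 7.89, 18.5 and 22.1 CPM in XZSW, and fell by 2.14 ± 0.34 (SE) with no overlap. Tmem252 fell by 2.29, or by 3.05 without XZSW2. Gadd45g, a growth-arrest gene, fell by 2.27, or by 2.95 without XZSW4, and Chac1, a glutathione-degrading enzyme gene, by 4.38, and neither of these was called in HUA against CTL. Chac1 was carried by CTL4, which held 17.3 CPM against 0.721 to 1.49 in the other controls, and its XZSW libraries held 0.123 to 0.406 CPM. Without CTL4 its log2 difference was −2.14 and it was not called.

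Dusp1, Per1 and Slc25a25 were also still lower, and Slc25a25 was called against HUA as well (XZSW minus HUA 1.25, adjusted p = 0.028). Their promoters are shown because they carry short elements through which cyclic AMP and clock factors are known to act. Dusp1 encodes a phosphatase that switches off MAP kinases, and it stood at 180.3, 199, 156 and 135 CPM in CTL and at 30.8, 58.6, 60.2 and 87.9 CPM in XZSW. Every XZSW library lay below every CTL library, and Dusp1 fell by 1.5 (adjusted p = 0.026) in XZSW and by 1.14 in HUA. The clock gene Per1 stood at 103, 115, 71.5 and 82.7 CPM in CTL and 23.4, 38.0, 37.0 and 54.2 CPM in XZSW. Its groups did not overlap, and Per1 fell by 1.29 (adjusted p = 0.0177), the only called member of 20 clock genes. Slc25a25, a calcium-dependent carrier of ATP and phosphate across the inner mitochondrial membrane, stood at 899, 901, 720.4 and 739 CPM in CTL, at 31.4 to 113 CPM in HUA and at 230.1, 278, 114 and 202 CPM in XZSW. The XZSW libraries lay below CTL and above HUA, XZSW3 only just so, and Slc25a25 fell by 1.98 ± 0.35 (SE, adjusted p = 0.0141) in XZSW and by 3.23 in HUA. Of 13 glucocorticoid and mineralocorticoid response genes, Pdk4, Per1 and Dusp1 were called lower and Lcn2 higher, with a median of −0.70.

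The 250 bases upstream of a RefSeq transcript start of these genes are given 5′ to 3′ on the gene's strand from GRCm38.p6, with CACGTG (the E-box of clock factors) and TGACGTCA (the cyclic AMP response element) in capitals. The positions are chr17:26508473-26508722 (minus strand) for Dusp1, chr11:69098699-69098948 (plus strand) for Per1 and chr2:32424067-32424316 (minus strand) for Slc25a25. Per1 has 2 and Slc25a25 has 3 starts in the RefSeq table, and the one shown holds the motif.
Dusp1: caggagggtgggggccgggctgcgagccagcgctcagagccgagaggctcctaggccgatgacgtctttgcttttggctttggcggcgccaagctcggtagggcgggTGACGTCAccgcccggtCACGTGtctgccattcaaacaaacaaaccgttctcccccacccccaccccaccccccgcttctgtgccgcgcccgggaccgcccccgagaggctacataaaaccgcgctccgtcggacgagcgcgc
Per1: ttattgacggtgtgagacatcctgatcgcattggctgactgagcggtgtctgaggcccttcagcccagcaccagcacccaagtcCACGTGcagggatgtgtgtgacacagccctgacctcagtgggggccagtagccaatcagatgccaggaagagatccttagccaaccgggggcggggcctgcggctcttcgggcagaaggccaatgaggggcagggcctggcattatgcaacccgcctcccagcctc
Slc25a25: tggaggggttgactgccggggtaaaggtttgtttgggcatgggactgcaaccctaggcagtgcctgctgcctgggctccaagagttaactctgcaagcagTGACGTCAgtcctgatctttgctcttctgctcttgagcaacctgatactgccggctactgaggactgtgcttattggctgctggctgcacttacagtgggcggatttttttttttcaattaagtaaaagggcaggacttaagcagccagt
In Dusp1, TGACGTCA begins 143 bases and CACGTG 126 bases before the start. The E-box of Per1 begins 166 bases and the TGACGTCA of Slc25a25 begins 150 bases before it. Both motifs read the same on either strand and do not overlap each other. CACGTG occurred in 6.02% of 32851 promoters of this length and TGACGTCA in 1.55%. CACGTG was found for 5 of the 16 clock genes matched to a promoter, and for 6.86% of all 27025 genes searched. The motif first listed for the immediate early genes, TGACTCA, was found for none of its 18 matched genes (5.16% of all genes searched). TGACGTCA was searched after the values were seen and was found for 2 of those 18, Btg2 and Dusp1 (1.77% of all genes searched). These matches describe the letters only and are not shown to be bound.

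Among the genes that were new under treatment, 56 were higher and 60 lower. The thiazide-sensitive sodium chloride cotransporter gene Slc12a3 stood at 632, 535, 640.4 and 458 CPM in CTL, at 769, 796, 402 and 617 CPM in HUA and at 1223, 1558, 1335 and 851 CPM in XZSW. Every XZSW library exceeded every library of the other groups, which overlapped each other. Slc12a3 rose by 1.13 ± 0.23 (SE, adjusted p = 0.0212) against CTL and by 0.94 against HUA (adjusted p = 0.0165). Wnk4, which encodes a kinase that regulates this cotransporter, stood at 159, 158, 138 and 159 CPM in CTL and at 221, 268, 322 and 319 CPM in XZSW, above HUA (122 to 167 CPM) as well. It rose by 0.88 ± 0.15 (SE, adjusted p = 0.0115), and against HUA by 1.01. With Trpv5 these were the 3 called of 13 distal convoluted and connecting tubule markers, whose median was 0.68, against −0.54 in HUA. On the log2(CPM + 0.5) scale, the median deviation of the 13 from the CTL mean was −0.03, 0.80, 0.76 and 0.59 in XZSW1 to XZSW4. Their sum was 2882 to 4011 CPM in XZSW and 2016 to 2403 CPM in CTL. The call for Slc12a3 was lost without CTL2, CTL3, CTL4 or XZSW3 (adjusted p up to 0.0729), and that for Wnk4 was kept without any one library.

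The other new genes on the higher side covered transcription, transport and cell junctions. The homeobox gene Hoxd4 stood at 12.1, 10.5, 10.1 and 8.95 CPM in CTL and at 19.9, 20.7, 20.1 and 18.3 CPM in XZSW. The XZSW values were tightly grouped above both CTL and HUA (10.5 to 12.9 CPM), and Hoxd4 rose by 0.92 (adjusted p = 0.00695). Its neighbour Hoxd3 rose by 1.24, and reads of the overlapping transcripts of both genes may not be separable. The amino acid transporter gene Slc7a8 stood at 39.4, 34.1, 29.9 and 31.6 CPM in CTL and 51.4, 71.7, 66.9 and 62.6 CPM in XZSW, with no overlap, and rose by 0.90. Cables2 rose by 1.18, the G protein regulator gene Rgs11 by 1.12, the tight junction gene Tjp3 by 0.89 and the scavenger receptor gene Scarf1 by 0.89. The chloride channel family gene Clic3 rose by 1.28 and Mycbpap by 1.22.

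Genes that were new under treatment and lower had varied roles, and 1 of them, Jun, belongs to the immediate early list. Jun, a subunit of the transcription factor AP-1 (chr4:95049034-95052222), stood at 138, 132, 97.7 and 115 CPM in CTL, at 120.0 to 221 CPM in HUA and at 33.8, 34.9, 31.4 and 62.4 CPM in XZSW. XZSW4 was the highest of its group and still below all CTL and HUA libraries. Jun fell by 1.57 ± 0.25 (SE, adjusted p = 0.00947) against CTL and its difference from HUA was −2.12. The neutrophil chemokine gene Cxcl1 stood at 22.8, 42.8, 37.4 and 24.7 CPM in CTL, 34.1 to 199 CPM in HUA and 6.25, 2.65, 1.16 and 11.4 CPM in XZSW. The XZSW libraries were lowest throughout, and Cxcl1 fell by 2.57 ± 0.64 (SE, adjusted p = 0.0383). Its call was lost in 7 of 12 fits that left out 1 library, with adjusted p up to 0.103 without CTL2. Without XZSW4 it fell by 3.25. Rcan1, an inhibitor of calcineurin, stood at 222, 216, 174 and 284 CPM in CTL and 77.1, 80.2, 62.9 and 53.9 CPM in XZSW, with no overlap. It fell by 1.71 ± 0.26 (SE, adjusted p = 0.00748), with 0.13 in HUA. The autophagy gene Vmp1 stood at 299, 330.4, 267 and 381 CPM in CTL and 89.8, 107, 124 and 154 CPM in XZSW, apart from CTL and HUA, and fell by 1.43 ± 0.20 (SE, adjusted p = 0.00525). Nt5e, which encodes the ectoenzyme that makes adenosine from AMP, stood at 117, 149, 205 and 245 CPM in CTL and 77.0, 81.1, 75.9 and 62.7 CPM in XZSW, without overlap, and fell by 1.27 against CTL and by 0.93 against HUA.

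Further genes of this kind were regulators and transporters. The phosphatase gene Dusp4 fell by 1.37, the insulin receptor substrate gene Irs2 by 1.35, the transcription factor gene Klf11 by 1.09 and the zinc transporter gene Slc39a14 by 0.95. Cardiac actin Actc1 fell by 3.59, from 1.79 to 6.38 CPM in CTL to 0.0613 to 0.779 CPM in XZSW, and none of 5 skeletal muscle markers was called. The immediate early list had 2 of 22 members called lower and none higher in XZSW against CTL, with a median of −0.67, against 14 higher and 2 lower in HUA with a median of 1.45. Tested directly against HUA, 15 of the 22 were lower in XZSW and none higher, where 8.34% of all tested genes were lower and 7.09% higher; over all genes 15.4% were called. Cytokine and chemokine genes had 3 called higher and 2 lower of 27, with a median of 0.87. The 2 lower ones were Ccl28 and Cxcl1. The 3 higher became 0 without CTL1, CTL4, XZSW1 or XZSW3 and 1 without CTL2, CTL3, XZSW2 or XZSW4. Ccl4, one of the 3 higher, was counted at 0, 0.0595, 0 and 0 CPM in CTL, too few for a fold change, and at 0.16 to 0.406 CPM in XZSW.

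**Figure D4:**
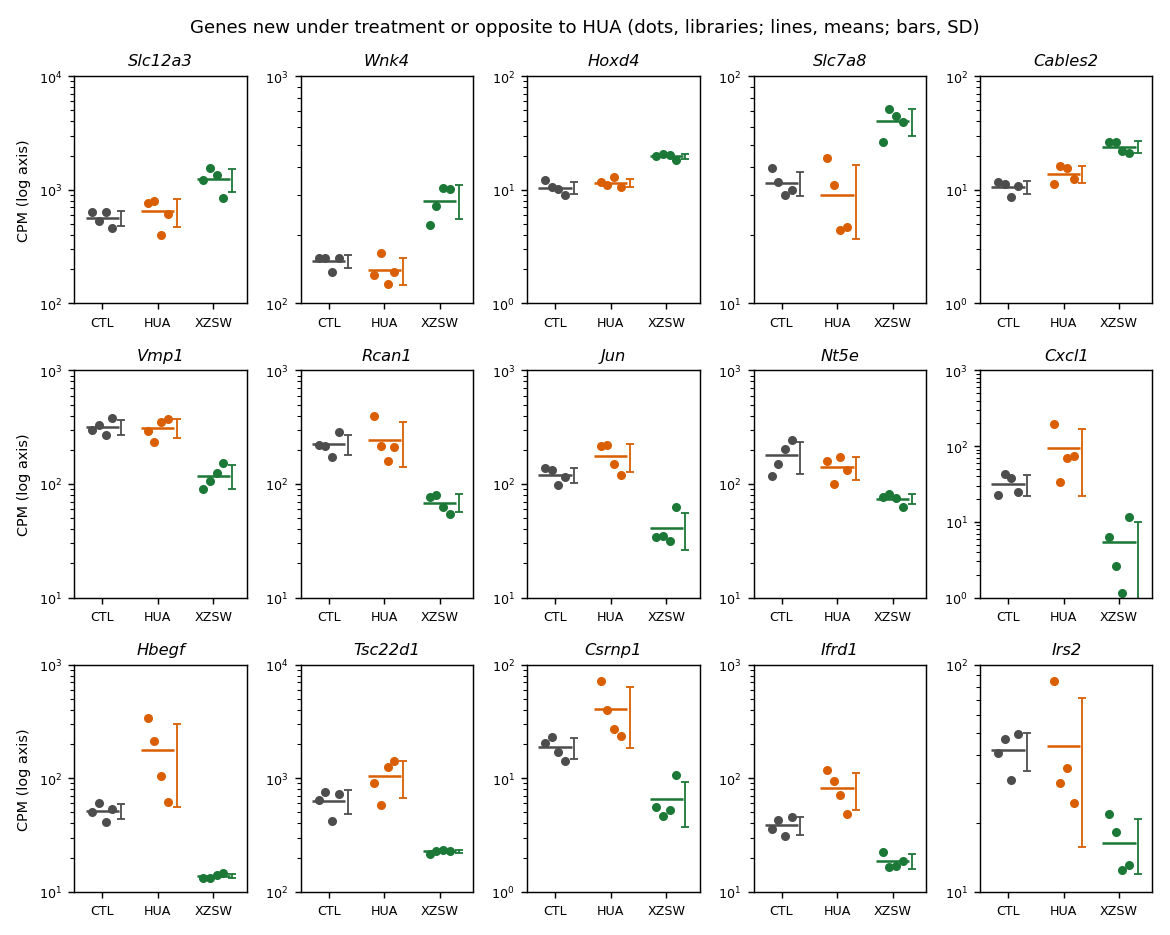
CPM on a log axis for 15 genes called new under treatment or opposite in direction, with dots for the 4 libraries of CTL, HUA and XZSW, a line at the mean and a bar of 1 SD. In the XZSW libraries Slc12a3, Wnk4, Hoxd4, Slc7a8 and Cables2 lie above both other groups, and the other 10 genes lie below both.

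The 6 genes called in opposite directions were above control in HUA and below it in XZSW in 5 cases. Hbegf encodes a growth factor that activates the EGF receptor. It stood at 50.1, 61.0, 41.2 and 54.1 CPM in CTL, at 335, 211, 104 and 61.3 CPM in HUA and at 13.2, 13.4, 14 and 14.6 CPM in XZSW. The 3 groups did not overlap, though HUA4 lay just above the highest control. Hbegf fell by 1.9 ± 0.39 (SE, adjusted p = 0.0212) in XZSW and rose by 1.79 in HUA, and XZSW minus HUA was −3.69. The leucine zipper gene Tsc22d1 stood at 642, 753, 418 and 732 CPM in CTL and at 216, 228, 232 and 231 CPM in XZSW, with no overlap, and fell by 1.49 (adjusted p = 0.0119) beside a rise of 0.71 in HUA. The nuclear factor gene Csrnp1 fell by 1.52, Ifrd1, an interferon-related developmental regulator, by 1.05 and Bdkrb2, the bradykinin receptor gene, by 1.27, against rises of 1.12, 1.09 and 0.99 in HUA. The XZSW and CTL libraries of Bdkrb2 overlapped. The predicted gene Gm13262 went the other way, with a rise of 1.78 in XZSW and a log2 difference of −1.22 in HUA. Of the 6, only Tsc22d1 kept its XZSW call without any one library. The number of opposite genes was 0 without CTL2, CTL3 or CTL4, 1 without CTL1 or XZSW3, 3 without XZSW1, 16 without HUA2 and 17 without HUA1.

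Genes named in the series title were examined because the study concerns macrophage entry through osteopontin and its receptor. Osteopontin gene Spp1 stood at 541, 469, 467 and 571 CPM in CTL and at 1214, 802, 1243 and 1407 CPM in XZSW. Every XZSW library exceeded every CTL library, but the log2 difference of 1.19 ± 0.44 (SE) was not called (adjusted p = 0.129). Spp1 was called in 4 of 25 alternative fits, and its log2 difference ranged from 0.93 to 1.39 over the 25. The HUA value was 5.32 and XZSW minus HUA was −4.14 (adjusted p = 0.00047). Its receptor gene Cd44 stood at 3.31, 3.51, 2.41 and 6.05 CPM in CTL and 4.97, 7.37, 5.15 and 7.92 CPM in XZSW, with overlap, and was not called (0.73, adjusted p = 0.232). The kinase genes Src and Ptk2 and the beta-catenin gene Ctnnb1 had log2 differences of −0.01, 0.07 and −0.17 and none was called. A p that misses the threshold does not show that a level equals control. Of 20 genes of SRC and FAK signalling 1 was called, the integrin gene Itgb3, with a rise of 1.61 that was lost without any one CTL library or XZSW1, XZSW3 or XZSW4, against 12 higher in HUA, and none of 21 Wnt and beta-catenin genes was called. Antigen presentation (15 genes), cell cycle (23), gluconeogenesis and amino acid metabolism (22) and the protein genes of the mitochondrial genome (13) had no called member in XZSW either. All 15 antigen presentation genes had positive log2 differences, with a median of 0.94, and 11 were called higher in HUA. They summed to 737, 898, 1310 and 1322 CPM in XZSW1 to XZSW4 and to 561 to 968 CPM in CTL.

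**Figure D5:**
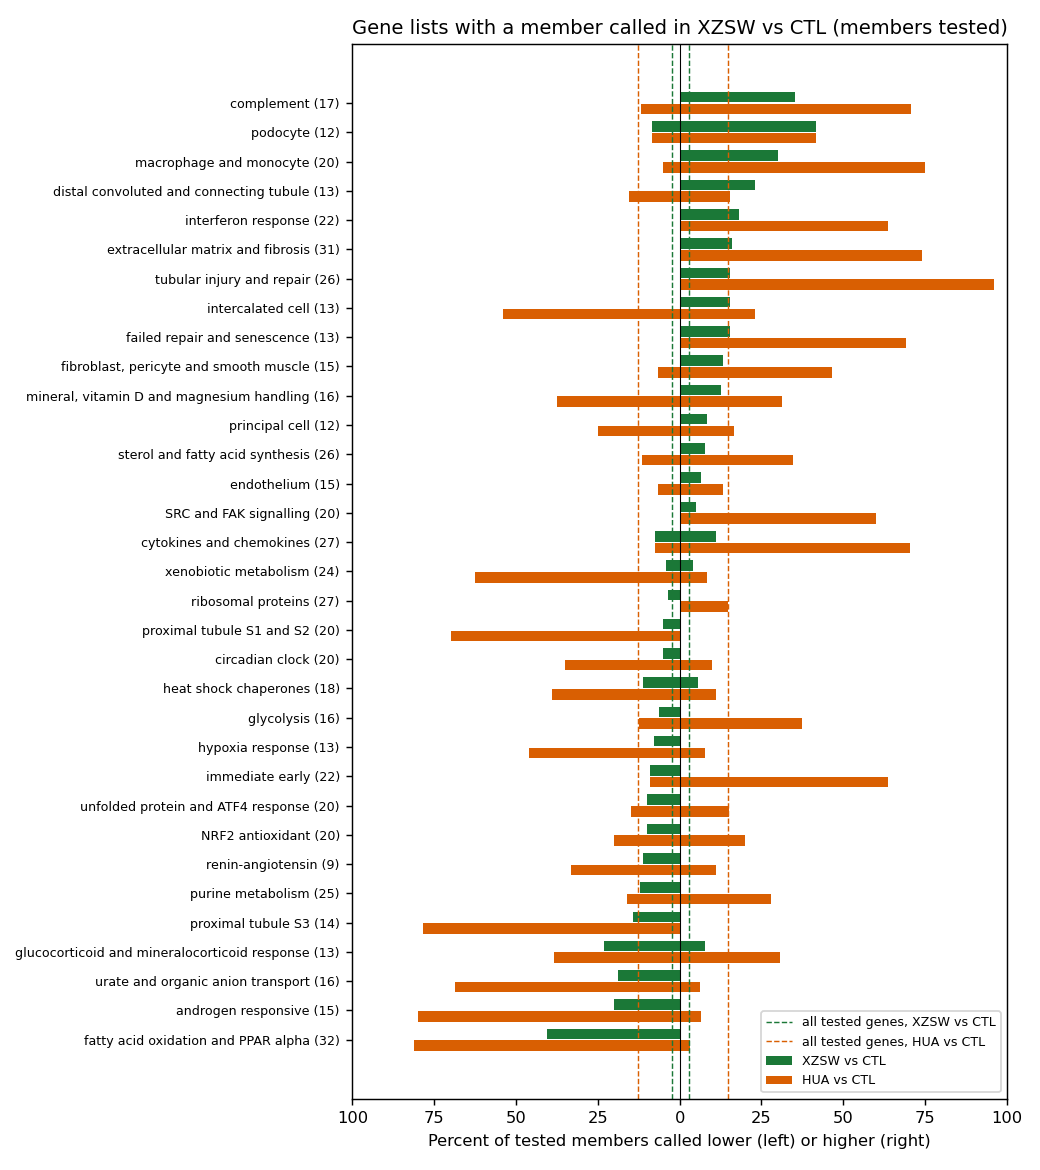
For each gene list shown, the percentage of tested members called lower (left) and higher (right) in XZSW against CTL and in HUA against CTL, with dashed lines at the percentages over all tested genes. The fatty acid oxidation and PPAR alpha list reaches furthest on the lower side for XZSW, with 13 of 32. Podocyte markers reach furthest on the higher side, with 5 of 12.

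The calls differed in how far they rested on single libraries. Of the 107 called genes named here, 35 stayed past the threshold in all 12 fits that left out 1 library. These 35 are Clu, Hspb8, Cfi, C3ar1, Cd72, Cx3cr1, Cdkn1c, Synpo, Nphs1, Ddn, Trpv5, Trpv6, Foxi1, Gata2 and Slc4a3 among the still higher genes, Pdk4, Angptl4, Plk3, Gm14494, Slc25a25, Ccl28, Gusb, Ddit4, Tob2 and Ace among the still lower, Wnk4, Hoxd4, Cables2, Rgs11, Jun, Rcan1, Vmp1, Dusp4 and Nt5e among the new, and Tsc22d1. The other 72 lost their call in at least 1 fit, at adjusted p up to 0.128 by edgeR's quasi-likelihood test, with the same direction throughout. The calls lost numbered 52 without CTL1, 68 without CTL2, 62 without CTL3, 51 without CTL4, 45 without XZSW1, 20 without XZSW2, 57 without XZSW3 and 33 without XZSW4.

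The share of counts on the mitochondrial genome was 13.1% ± 1.44 (SD, n = 4) in CTL, 9.47% ± 1.75 in HUA and 16.1% ± 1.77 in XZSW. The treated model exceeded control by 2.98 percentage points, which did not pass an exact two-sided permutation test (p = 0.0857, where the smallest p that 4 against 4 allows is 0.0286). XZSW libraries ranged from 13.5% to 17.2%.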

How the data were processed

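Total RNA was extracted with TRIzol and made into strand-specific libraries, per the labels' protocols. Reads were trimmed with cutadapt 1.9 and aligned with HISAT2 2.2.1 to GRCm38, per the submitters' processing notes. Reads were then counted per gene, with the counting tool, annotation and filters not given in the sources used here. Raw counts per gene and FPKM values for all 12 libraries were deposited by the authors in one table, per the file headers. The total was 51643999 to 74288100 counts per library, and their precision is limited by 4 libraries per group.

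Counts were fitted over all 12 libraries with edgeR 4.0.16 (quasi-likelihood F-test, TMM scaling, filterByExpr, Benjamini-Hochberg adjustment over 19772 genes, threshold 0.05), with group as the only term. The fit was tested on simulated counts drawn around the CTL means, with known folds set in XZSW only. Those counts held no GC difference between libraries, so that test cannot speak for this feature of the data. FPKM served for a minimum of 2 in naming the genes with the largest changes and the opposite genes. List members, title genes and genes named after their values were seen had no minimum. FPKM also served for alternatives with limma 3.58.1 on log2(FPKM + 1) and log2(FPKM + 0.1). DESeq2 1.42.0 and the other alternatives are given in the closing section. Gene lists and genes were chosen with earlier results of these data known.

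Named genes were the 10 largest called rises and falls, the 10 still changed and 10 new genes per direction with the largest changes, the opposite genes, the 4 members of each list with the smallest p, and the genes of the title. The first kinds excluded predicted genes and genes whose libraries overlapped, and some were left out. Havcr1, Ccr2, Fcgr1, Wt1, Acot2, Acadm, Cpt2, Decr1, Etfdh, Bdkrb2, Gm13262, Gata2, Slc4a3, Gm14494, Ppara and Cyp4a14 fall outside that rule and were named after their values were seen. Results for some genes are not reported here. The hepatocyte list and the TGACGTCA motif were also added then.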

Additional observations from a re-analysis of the deposited data

Results flagged for a closer look

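Of 232 groups of 4 libraries screened in the 116 named genes, 13 held a library that stood apart from the other 3 by Dixon's test, and chance flags about 1 in 20 groups. In XZSW1, Serpina3n was at 17.1 CPM against 1.29 to 2.83 in the other XZSW libraries, Atp11a at 900.4 against 732 to 760.2, and Itgb3 at 4.26 against 1.96 to 2.10. In XZSW2, Angptl4 was at 92.4 CPM against 41.2 to 44.9 and Tmem252 at 157 against 34.6 to 46.6. In XZSW4, Jun was at 62.4 CPM against 31.4 to 34.9 and Csrnp1 at 10.6 against 4.64 to 5.54.

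Among controls, CTL4 stood apart for Chac1 (17.3 CPM against 0.721 to 1.49), Cyp4a14 (829.5 against 123 to 188) and Spi1 (1.73 against 0.793 to 0.926). CTL3 stood apart for Cd68 (0.947 CPM against 1.84 to 1.99) and Wnk4 (138 against 158 to 159). CTL1 stood apart for Gm13262 (1.63 CPM against 1.03 to 1.12).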

How the results depend on the processing

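All 107 called genes named in the report kept their direction in every alternative that tested them (25, or 24 for Ccl4, which the stricter filter removed), and 25 of them also kept their call. Of the named genes not called in the main fit, Spp1 was called in 4 of 25 alternatives, Slc22a12 in 6 and Cyp4a14 in 5. The number of called genes, with higher and lower, was 2417, 1408 and 1009 by DESeq2. A GC term set HUA2, HUA3, HUA4, XZSW3 and XZSW4 apart from the other libraries and gave 1750, 944 and 806. Without a count filter the numbers were 529, 334 and 195. In the 8 XZSW and CTL libraries alone they were 2625, 1278 and 1347. They were 357, 227 and 130 without XZSW1 and XZSW2, and 313, 227 and 86 without XZSW3 and XZSW4. Limma on log2(FPKM + 0.1) gave 1744, 1545 and 199. GC and length correction gave 1632 called and 1242 lower, library totals 1221 higher and 224 lower, and limma on log2(FPKM + 1) 1188 higher and 188 lower. Library totals shifted the median of all genes by 0.16 and the FPKM fits by 0.21 and 0.16.

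Still changed genes numbered 1629 by DESeq2, 1172 after GC and length correction, 1127 with the GC term, 1153 by library totals, 1295 by FPKM + 0.1, 403 without a filter, 288 without XZSW1 and XZSW2 and 189 without XZSW3 and XZSW4. New genes numbered 314, 190 and 208 by DESeq2, after GC and length correction and with the GC term, 185 by FPKM + 1, 48 without a filter and 41 without XZSW1 and XZSW2. Opposite genes numbered 33 by DESeq2, 2 with the GC term and without either XZSW pair, 14 by library totals, 11 by FPKM + 0.1 and with a stricter filter, and 3 without a filter. Returned genes numbered 1013 and 1220 without the first and second XZSW pair.

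Leaving out 1 library gave 133 to 1596 called, 83 to 873 higher, 50 to 723 lower, 108 to 1104 still changed, 21 to 183 new, 0 to 17 opposite and 1184 to 2693 returned genes, and a mitochondrial difference of 2.49 to 3.85 points. The cause of these shifts was not tested.

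With the replicate number as a block, 813 genes were called, 588 still changed, 97 new and 11 opposite. The calls of 15 named genes missed the threshold in that fit (adjusted p 0.0507 to 0.0858), namely Atp6v0d2, Ccl4, Ccr2, Col1a1, Col3a1, Dusp1, Fcgr1, Gadd45g, Gbp2, Gmps, Irf1, Serpina1a, Serpina1c, Tnc and Wt1. Same-numbered XZSW and CTL libraries had residual correlations of −0.036 to 0.12, and 3 of 12 same-numbered pairs over all groups exceeded 0.1. Of the 8 XZSW and CTL libraries, 6 correlated best with their own number, a hint of pairing that comes from the data and not from the design. The numbers were not treated as a pairing, since the labels name no shared source and not every pair exceeded 0.1.

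Only genes that were not called changed sign. Src was positive at 0.15 by library totals, 0.22 and 0.19 by the FPKM fits, 0.078 without XZSW1 and XZSW2, 0.031 without a filter, 0.00315 in the 8 libraries and 0.00237 with a stricter filter, and ranged from −0.0900 to 0.0797 without 1 library. Ptk2 was −0.037 after GC and length correction, −0.12 without XZSW1 and XZSW2 and −0.015 to 0.15 without 1 library. Havcr1 was 0.18 without XZSW1 and XZSW2 and −0.58 to 0.023 without 1 library, Ctnnb1 was 0.059 and 0.058 in the FPKM fits, and Ppara was 0.014 with the GC term.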
